A study of Mus musculus with 8 samples.

Results

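The genes described here are the receptors and enzymes of sphingosine 1-phosphate (S1P), 9 of the 24015 genes in the count table. They are the receptors S1pr1, S1pr2, S1pr3, S1pr4 and S1pr5, the kinases Sphk1 and Sphk2, the lyase Sgpl1 and the exporter Spns2. The set was chosen by its gene names after S1pr3 had been seen to be almost missing from the endothelium of Sl/Sl embryos, and S1pr3 was therefore selected on the Sl/Sl and wild type endothelium libraries. Values from that comparison, and every comparison of S1pr3 that uses those libraries, are given below as a description without a test. RNA came from E11.5 mouse embryos on a C57BL/6 background, from the aorta-gonad-mesonephros region (AGM) with the vitelline and umbilical arteries. Hematopoietic clusters, sorted as Ter119- VE-Cadherin+ c-Kit+, and endothelium, sorted as Ter119- VE-Cadherin+ c-Kit- CD41- CD45-, were each taken from wild type (WT) and from Sl/Sl embryos. Sl/Sl embryos carry on both chromosomes the Steel deletion, which removes Kitl, the ligand of the receptor Kit, in every cell of the embryo. Each of the 4 groups had 2 libraries of 100 cells, made from pools of embryos of the same genotype. The study describes the libraries of a group as biological replicates, with pools of embryos and more than one sorting experiment. Which library came from which pool or sort is not given in the sources used here, and the p-values below measure the spread between these libraries.

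S1P is a lipid signal made inside cells when a sphingosine kinase adds a phosphate to sphingosine. It is broken down for good by the lyase Sgpl1, or returned to sphingosine by phosphatases, and endothelial cells release it through Spns2. Outside the cell it binds G protein-coupled receptors, of which S1pr1 acts through Gi and Rac to stabilise the endothelial barrier, while S1pr2 and S1pr3 can also couple to G12/13 and Gq, and S1pr4 and S1pr5 are known mainly from blood cells and, for S1pr5, also from oligodendrocytes.

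Total counts on genes ranged from 8933236 to 13428214 per library. The counts carry no molecular identifiers, so intervals and floors drawn from them cover counting error only, and a count of 0 allows up to 3 counts. Counts of Kitl were 1250 and 923 in WT endothelium but 6 and 2 in Sl/Sl endothelium. Among clusters WT had 110 and 0 and Sl/Sl had 1 and 3, so this gene does not set WT clusters replicate 2 apart from the Sl/Sl libraries. Of the 8 hematopoietic markers, including Ptprc and Runx1, the summed level was 1005 to 1305 CPM (counts in each 1000000 counts on genes of a library) in clusters and 84.8 to 94.6 CPM in endothelium. Most of the endothelium sum was Laptm5, at 59.9 to 68.3 CPM. Ptprc was at 0.572 to 1.25 CPM there and Runx1 at 1.87 to 2.52 CPM. The 10 endothelial markers, including Cdh5 and Kdr, summed to 5540 to 6276 CPM in endothelium and to 446 to 2796 CPM in clusters. Replicates differed widely, with a biological coefficient of variation of 0.817 across the 13908 genes that passed the filter on low counts. These included 7 of the 9 genes, all but S1pr5 and Sphk1.

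S1pr3 lies on chromosome 13 from 51503987 to 51518166 on the forward strand of mm9, with 2 exons. The 250 bases before its first exon were compared with those of S1pr2, the receptor closest to it in coupling, which stayed present in Sl/Sl endothelium. This is a description of 1 pair of genes. In Sl/Sl clusters S1pr3 had 193 and 549 counts, and whether these bases had a part in its counts was not tested. The sequences are from RefSeq on GRCm38.p6, where 8 of the 9 genes had an entry, and the first lies at chr13:51408368-51408617 on the forward strand and the second at chr9:20976794-20977043 on the reverse strand. Both were found unchanged directly before the first exon in the genome of the count table, NCBIM37 (mm9). Capitals mark GATA on either strand (GATA or TATC), the core bound by GATA factors such as the endothelial and hematopoietic regulator Gata2. This motif was picked after the counts were seen.
S1pr3: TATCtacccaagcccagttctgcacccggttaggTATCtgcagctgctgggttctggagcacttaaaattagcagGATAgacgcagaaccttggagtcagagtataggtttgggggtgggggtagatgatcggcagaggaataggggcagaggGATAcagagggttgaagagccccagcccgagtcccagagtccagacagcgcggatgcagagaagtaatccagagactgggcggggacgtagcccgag
S1pr2: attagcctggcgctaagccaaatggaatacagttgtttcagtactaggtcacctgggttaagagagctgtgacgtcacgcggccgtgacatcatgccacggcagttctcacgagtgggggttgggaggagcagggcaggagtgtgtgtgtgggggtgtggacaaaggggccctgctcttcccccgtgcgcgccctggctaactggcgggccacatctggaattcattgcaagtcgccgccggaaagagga
The S1pr3 window held 4 copies of GATA and the S1pr2 window 0. Among the other genes with an entry, the windows of S1pr4, Spns2 and Sphk2 held 1 copy. Those of S1pr5 and Sgpl1 held 0, and those of Sphk1 held 0 or 2. Of 32851 RefSeq promoters of the same length, 53.62% held at least 1 copy and 3.519% held at least 4. Of the other motifs searched on both strands, GGAA, the core of ETS factors, occurred once in S1pr3 and 4 times in S1pr2, and 93.45% of all promoters held it. CACCC, a core of KLF factors, occurred 2 times in S1pr3 and once in S1pr2, against 52.01% of promoters with at least 1 copy and 21.09% with at least 2. TGTGGT, a RUNX core, had 0 matches in both, against 14.05% of promoters. Matches of different motifs shared 0 bases in both windows. A match is a description of the letters and shows no binding.

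**Figure D1:**
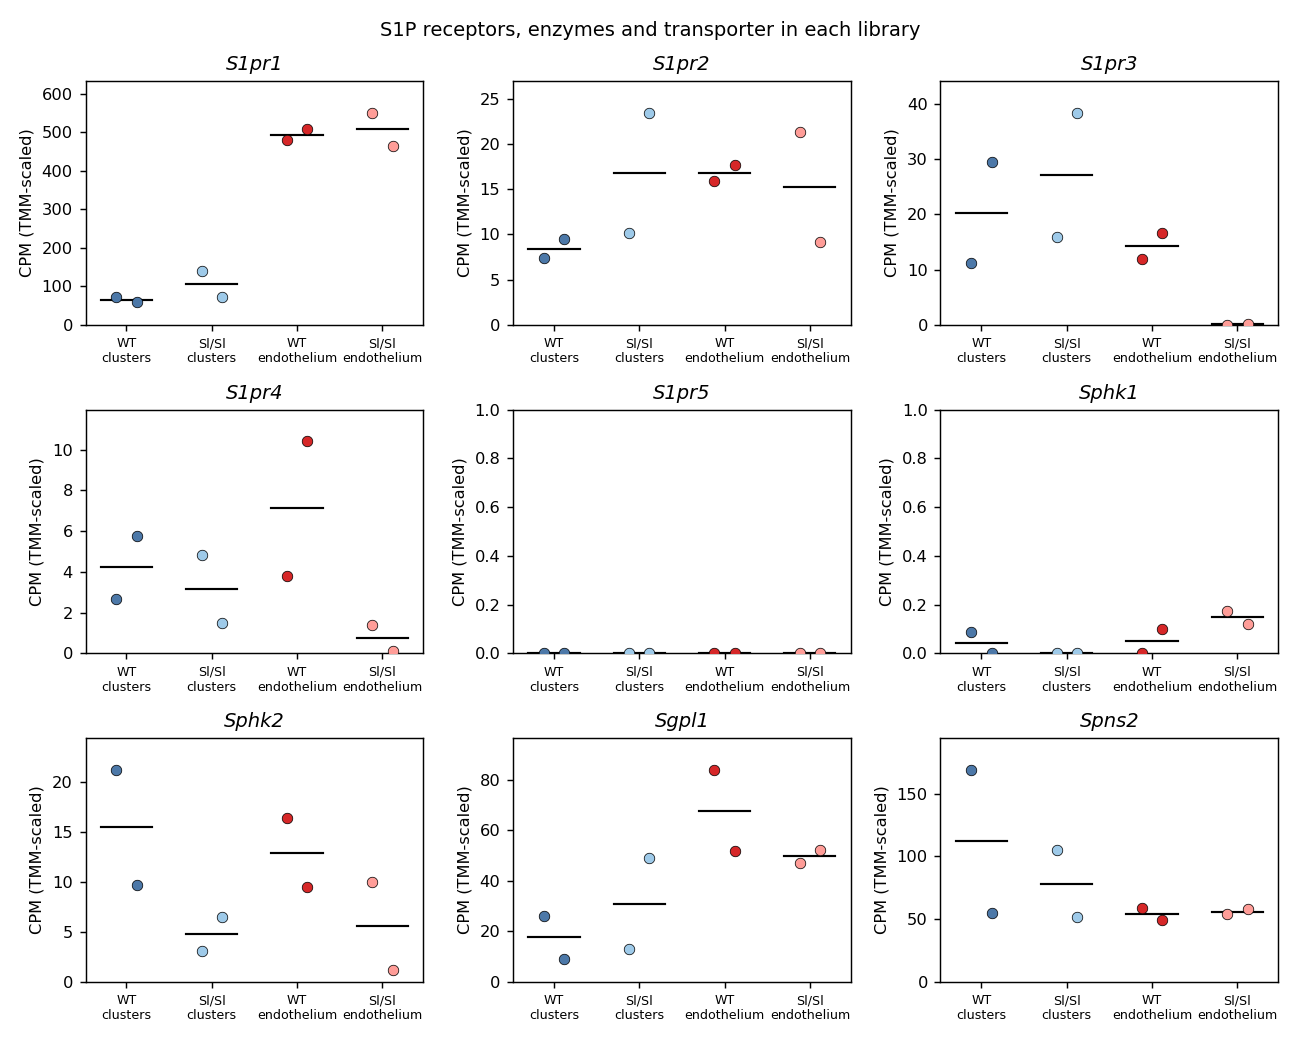
CPM (scaled by TMM factors, linear axis from 0) of the 9 genes in each of the 8 libraries, with a point for each library and a line at the mean of each group of 2. S1pr3 is at 0 and 0.119 CPM in Sl/Sl endothelium and between 11.1 and 38.4 CPM in the other libraries, whereas S1pr1 lies between 465 and 551 CPM in all 4 endothelium libraries.

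S1pr1, the main S1P receptor of endothelial cells, was the most abundant receptor in every library. On the per-length scale (RPKM, CPM divided by the exon length in kilobases), WT endothelium reached 157 ± 2.37 and Sl/Sl endothelium 159 ± 21.3 (mean ± SD, n = 2), against 22.7 ± 4.37 in WT clusters and 35.8 ± 15.0 in Sl/Sl clusters. The counts were 6026 and 5035 in WT endothelium and 6287 and 3902 in Sl/Sl endothelium. Clusters had 839 and 745 counts in WT and 1686 and 1024 in Sl/Sl. Every endothelium library was above every cluster library. S1pr1 was higher in endothelium than in clusters of WT embryos by a log2 fold change of 2.92 (SE 0.34, adjusted p = 0.00250, edgeR quasi-likelihood test with Benjamini-Hochberg adjustment). In Sl/Sl embryos the log2 fold change was 2.27 (SE 0.33, adjusted p = 0.0127, edgeR). The call was kept when any 1 library was left out, with log2 fold changes of 2.74 to 3.09 in WT and 1.87 to 2.83 in Sl/Sl. The difference between these cell type contrasts was -0.65 on the log2 scale (SE 0.45, adjusted p = 0.954, edgeR) and was not past the threshold of 0.1.

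Between genotypes, the fitted log2 difference of Sl/Sl from WT was 0.04 (SE 0.32) for S1pr1 in endothelium. In clusters the difference was 0.69 (SE 0.32, adjusted p = 1, edgeR), and the CPM of the 2 groups overlapped, with 72.4 and 58.0 in WT and 138 and 71.6 in Sl/Sl. Summed, the endothelial markers were ordered like S1pr1 among the cluster libraries. Their sum was 446 CPM in WT replicate 2, 803 in Sl/Sl replicate 2, 1261 in WT replicate 1 and 2796 in Sl/Sl replicate 1. S1pr1 ran through 59.3, 76.3, 78 and 141 CPM (plain totals) in the same libraries. Taken singly, Cdh5, Tie1, Flt1 and Egfl7 did not have this order. Cdh5 was at 235 CPM in WT replicate 1 and 152 in Sl/Sl replicate 1. All 10 markers had counts above 0 in each cluster library, and their part in the S1pr1 values was not tested. In these bulk samples, fewer cells of a type and less RNA per cell cannot be told apart.

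S1pr1 lies on chromosome 3 from 115413351 to 115417973 on the reverse strand. The genes whose log2 CPM ran most like it over the 8 libraries, after each gene was centred on its own mean, were Plk2, Gchfr and Sat1. Their root mean square differences from S1pr1 were 0.147, 0.208 and 0.273, against a median of 1.66 over all other genes tested. Plk2, a polo-like kinase, had 1624 and 1425 counts in WT clusters, 3465 and 1927 in Sl/Sl clusters, 11342 and 10552 in WT endothelium and 11541 and 10005 in Sl/Sl endothelium.

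S1pr3, the receptor by which the set was chosen, had 149 and 164 counts in WT endothelium and 0 and 1 in Sl/Sl endothelium. In clusters it had 129 and 378 counts in WT and 193 and 549 in Sl/Sl. The near absence was thus seen in the endothelium libraries of Sl/Sl, and not in the cluster libraries of the same genotype, where both values were within or above the WT values. Scaled by library totals and summed over each group, WT endothelium had 279.6 times the S1pr3 of Sl/Sl endothelium, with a 95% counting interval of 49.8 to 11077, which rests on a single count in Sl/Sl. The interval describes counting error in the libraries on which S1pr3 was selected and is no test of the genotypes. Per length, S1pr3 was at 3.04 ± 0.633 RPKM in WT endothelium and 0.0125 ± 0.0177 RPKM in Sl/Sl endothelium (n = 2). In WT clusters it was at 4.69 ± 2.85 RPKM and in Sl/Sl clusters at 6.35 ± 3.91 RPKM. Counts of 0 in Sl/Sl endothelium replicate 1 allow a level of up to 0.252 CPM.

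The fitted log2 difference of S1pr3 between genotypes in clusters was 0.42 (SE 0.98, adjusted p = 1, edgeR). The contrast compares cluster libraries only. Its SE and p-value use a spread estimated on all 8 libraries, including the endothelium libraries S1pr3 was chosen on. The sign of the difference turned when 1 library was left out, from -0.35 without Sl/Sl clusters replicate 2 to 1.28 without WT clusters replicate 2. Among clusters the WT and Sl/Sl libraries overlapped in CPM. Summed, the 5 platelet markers Pf4, Ppbp, Gp9, Gp1bb and Itgb3 were ordered like S1pr3 in clusters. Their sum was 107 CPM in WT replicate 1, 258 in Sl/Sl replicate 1, 1085 in WT replicate 2 and 1699 in Sl/Sl replicate 2. S1pr3 was at 12, 16.1, 30.1 and 40.9 CPM (plain totals) in these libraries. Taken singly, Pf4 and Ppbp had this order, and Gp9, Gp1bb and Itgb3 did not. Gp9 and Itgb3 were lowest in WT replicate 2, at 5.73 and 29.9 CPM. In endothelium the platelet markers summed to 20.3 and 17.4 CPM in WT and 5.88 and 2.80 CPM in Sl/Sl. This sum too was lower in both Sl/Sl libraries, and Ppbp was at 1 and 0 counts there against 69 and 2 in WT. Itgb3 overlapped, with 54 and 6 counts in Sl/Sl and 20 and 114 in WT. Whether platelet or megakaryocyte transcripts had a part in the S1pr3 values was not tested.

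Mural and mesenchymal cells also use S1pr3, and their 11 markers summed to 1082 and 274 CPM in WT endothelium and 574 and 638 CPM in Sl/Sl endothelium. The 2 genotypes overlapped in this sum. In Sl/Sl endothelium replicate 1, Acta2 and Tagln held 5100 and 1308 of the 6835 counts of this sum. Col1a2 and Pdgfra held 277 and 113 there, and Pdgfrb, Myh11 and Col1a1 held 1, 0 and 3. In Sl/Sl endothelium replicate 2, Acta2, Dcn, Col1a2 and Col1a1 held 1610, 1478, 1047 and 591 of 5700 counts, and Pdgfrb and Myh11 held 0 and 1. Between genotypes in endothelium, the fitted log2 differences of the markers were negative for 8 and positive for 3. Their median was -0.52 (-0.0014 over all genes). Dcn, a mesenchymal proteoglycan, had 3759 and 2 counts in WT endothelium and 16 and 1478 in Sl/Sl endothelium. Pdgfrb, a receptor of pericytes, had 179 and 7 counts against 1 and 0. In clusters the mural sum was 584 and 694 CPM in WT and 428 and 3504 CPM in Sl/Sl. Its highest value was in the library that also had the most S1pr3. Its lowest was in Sl/Sl replicate 1, while S1pr3 was lowest in WT replicate 1, at 12 CPM. The 8 macrophage markers summed to 134 to 262 CPM in clusters and 3.36 to 16.0 CPM in endothelium. The 7 erythroid markers summed to 26.0 to 265 CPM in clusters and 29.8 to 91.0 CPM in endothelium, and of these Hba-a1 was at 0 in every library. The part of these cell types in the S1pr3 values was not tested.

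**Figure D2:**
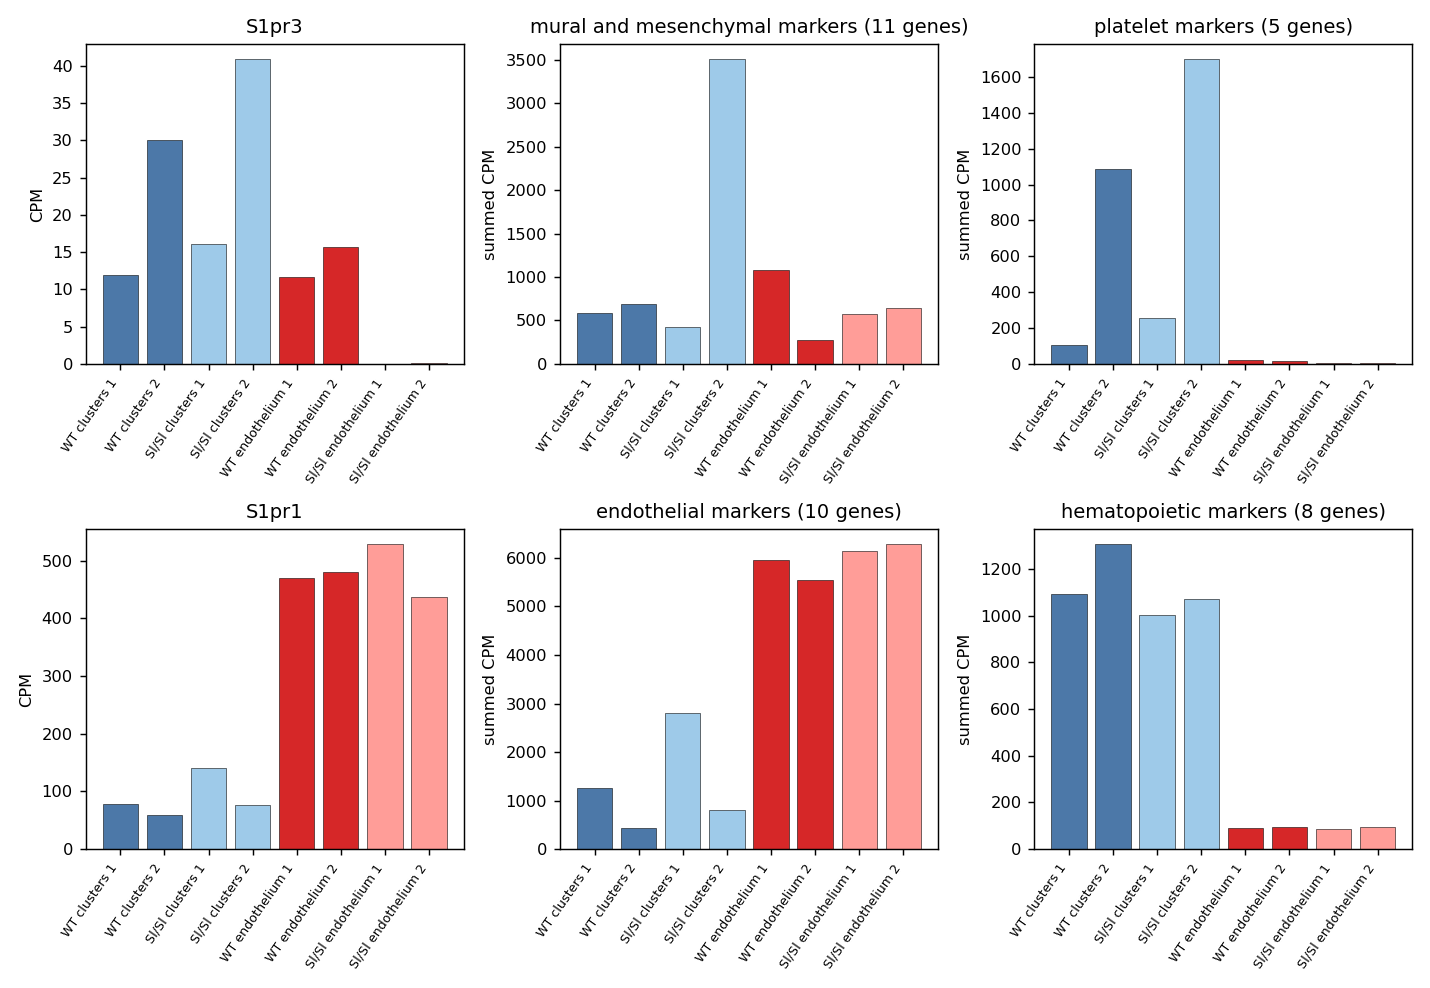
S1pr3 and S1pr1 in CPM (plain library totals, left) beside the summed CPM of the mural and mesenchymal, platelet, endothelial and hematopoietic marker lists, with a bar for each of the 8 libraries and linear axes from 0. S1pr3 and the platelet sum have the same order in the 4 cluster libraries, as do S1pr1 and the endothelial sum. Taken singly, Gp9, Gp1bb and Itgb3 of the platelet list and Cdh5, Tie1, Flt1 and Egfl7 of the endothelial list do not have it. In Sl/Sl endothelium S1pr3 is at 0 and 0.112 CPM and the mural sum at 574 and 638 CPM, of which Acta2 holds 428 and 180 CPM.

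S1pr3 was 1 of 10 genes with at least 100 counts in both WT endothelium libraries and at most 3 in both Sl/Sl endothelium libraries, and 4 genes showed the opposite. In clusters the numbers were 2 and 8. Between replicates, 487 genes in WT endothelium and 297 in Sl/Sl endothelium had at least 100 counts in 1 replicate and at most 3 in the other. There were 261 in WT clusters and 358 in Sl/Sl clusters. This rule sets 1 library against 1, and is easier to meet than the rule between genotypes, which sets 2 against 2. Whether differences between replicates had a part in the S1pr3 values was not tested. Over the 8 libraries, the genes most like S1pr3 were Lrp1, Rnf113a1 and Abhd11os, with root mean square differences of 0.654, 0.857 and 0.874 on the centred log2 CPM scale against a median of 2.91. Lrp1, an endocytic receptor of the LDL receptor family, had 86 and 111 counts in WT endothelium and 0 and 1 in Sl/Sl endothelium. In clusters it had 47 and 154 counts in WT and 50 and 207 in Sl/Sl. The values near 0 weigh heavily in this measure.

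Of the 17 genes within 1 Mb of S1pr3, 9 were at 0 in every library. Among them was Shc3 on the reverse strand, whose nearest exon, at the end of the gene, lies 8.245 kb away. Of the 8 neighbours tested, 1 was lower in both Sl/Sl endothelium libraries than in both WT libraries and 2 were higher, where 28.5% of all genes did not overlap in either direction. The lower gene was Sema4d, a semaphorin 278.5 kb downstream, with 78 and 152 counts in WT and 5 and 1 in Sl/Sl endothelium. Sema4d had 489 and 869 counts in WT clusters and 209 and 980 in Sl/Sl clusters. Nxnl2, a thioredoxin-like gene upstream of S1pr3, had 1 and 0 counts in WT and 68 and 75 in Sl/Sl endothelium. The other was Cks2, a subunit of cyclin-dependent kinases, with 1070 and 1112 counts in WT and 1526 and 1219 in Sl/Sl endothelium. Spin1 stood at 2936 and 2591 counts in WT and 3309 and 1552 in Sl/Sl endothelium, and its CPM overlapped between the genotypes. In clusters 3 neighbours were higher and 0 lower without overlap (32.7% of all genes in either direction). They were Fbxw17, 9430083A17Rik and Gadd45g, a stress-response gene with 410 and 362 counts in WT and 1373 and 1305 in Sl/Sl clusters (log2 difference 1.68, SE 0.39, adjusted p = 0.470, edgeR).

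S1pr2 spans 20770396 to 20781237 on chromosome 9. It had 200 and 175 counts in WT endothelium and 243 and 77 in Sl/Sl endothelium. In clusters it had 85 and 122 counts in WT and 124 and 335 in Sl/Sl, so that both Sl/Sl cluster libraries were above both WT ones by CPM. The fitted log2 difference in clusters was 1.00 (SE 0.89, adjusted p = 1, edgeR), and it ranged from 0.28 to 1.48 when 1 library was left out. In WT embryos S1pr2 stood higher in both endothelium libraries than in both cluster libraries, at 5.73 ± 0.274 against 3.13 ± 0.454 RPKM (n = 2), with a log2 fold change of 1.00 (SE 0.89, adjusted p = 0.586, edgeR). In Sl/Sl embryos the levels were 5.16 ± 2.96 and 6.27 ± 3.67 RPKM and the libraries overlapped.

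S1pr4, a receptor of lymphoid and myeloid cells, is a gene of 1 exon on chromosome 10 from 80960490 to 80962882. It had 48 and 103 counts in WT endothelium and 16 and 1 in Sl/Sl endothelium. Both Sl/Sl endothelium libraries were below both WT ones, and the fitted log2 difference was -3.19 (SE 1.93), given as a description. Leaving out 1 library moved it from -5.77 without Sl/Sl endothelium replicate 1 to -2.30 without WT endothelium replicate 2. In clusters the counts were 31 and 74 in WT and 59 and 21 in Sl/Sl, which overlapped by CPM (log2 difference -0.42, SE 1.77, adjusted p = 1, edgeR). Over the 8 libraries S1pr4 ran most like Socs7, Atxn7l2 and Rec8, with root mean square differences of 0.520, 0.590 and 0.604 against a median of 1.76. S1pr5 had 0 counts in every library, which allows up to 0.223 to 0.336 CPM depending on the library.

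Of the summed receptor RPKM, S1pr1 took 94.1% and 92.1% in WT endothelium and 95.7% and 97.9% in Sl/Sl endothelium. In clusters S1pr1 took 79.4% and 60.8% in WT and 83.3% and 57.5% in Sl/Sl. S1pr3 took 1.57% and 2.03% in WT endothelium and 0% and 0.0169% in Sl/Sl endothelium. The summed receptor level was 165 and 172 RPKM in WT endothelium and 182 and 147 RPKM in Sl/Sl endothelium, which overlap. In clusters S1pr3 took 8.25% and 20.8% in WT and 6.44% and 20.8% in Sl/Sl.

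**Figure D3:**
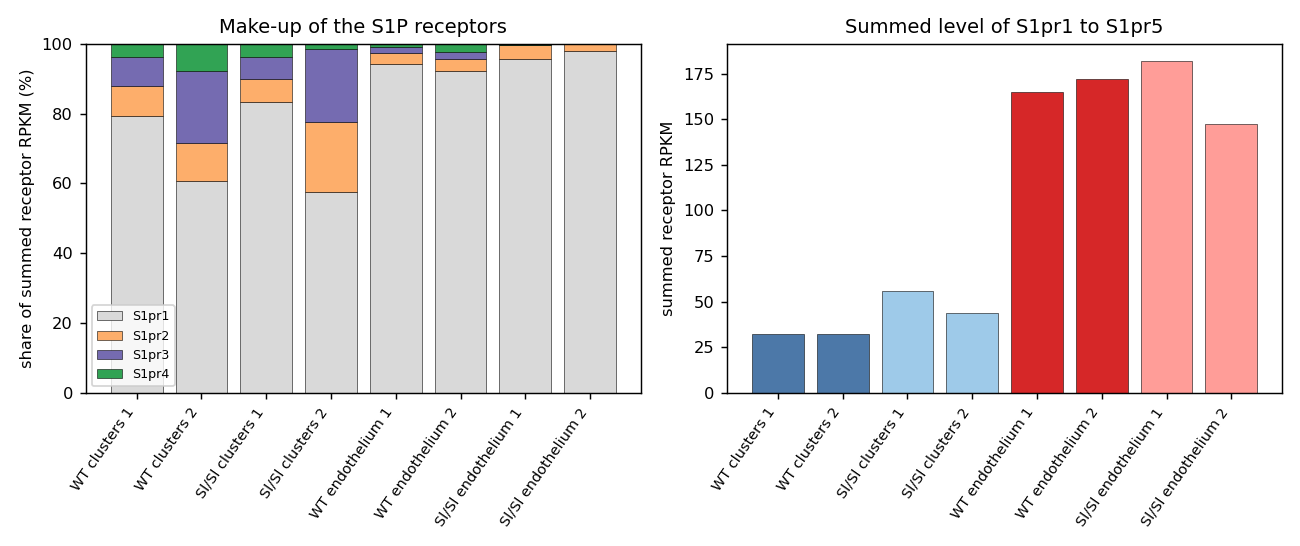
Left, share of each receptor in the summed RPKM of S1pr1 to S1pr4 (S1pr5 is at 0) in percent, stacked for each library; right, the summed receptor RPKM on a linear axis from 0. S1pr1 takes 92.1% to 97.9% in endothelium and 57.5% to 83.3% in clusters, and the sum is 147 to 182 RPKM in endothelium and 32.2 to 55.8 RPKM in clusters.

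Of the kinases that make S1P, Sphk1 was hardly detected. Its counts were 1 and 0 in WT clusters, 0 and 0 in Sl/Sl clusters, 0 and 1 in WT endothelium and 2 and 1 in Sl/Sl endothelium, at or below the 3 counts that a count of 0 allows, so no fold change is given. Sphk2, the kinase found in the nucleus and mitochondria, lies on chromosome 7 from 52964833 to 52973372 on the reverse strand. It had 246 and 125 counts in WT clusters and 38 and 93 in Sl/Sl clusters, and 206 and 94 in WT endothelium and 114 and 10 in Sl/Sl endothelium. Both Sl/Sl cluster libraries were below both WT ones by CPM, with a log2 difference of -1.68 (SE 1.27, adjusted p = 1, edgeR), which ran from -2.30 without Sl/Sl clusters replicate 2 to -1.01 without WT clusters replicate 1. In endothelium the genotypes overlapped by CPM (log2 difference -1.21, SE 1.26), and the value ran from -3.42 without Sl/Sl endothelium replicate 1 to -0.38 without Sl/Sl endothelium replicate 2. The exons of Sphk2 share 539 bases with Dbp on the other strand, and the strand setting of the counting is not given in the sources used here, so reads of the pair cannot be told apart there.

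Sgpl1, the lyase that ends S1P signalling, lies on chromosome 10 from 60561390 to 60610413. It had 1057 and 512 counts in WT endothelium, 539 and 439 in Sl/Sl endothelium, 304 and 117 in WT clusters and 159 and 699 in Sl/Sl clusters. In WT embryos both endothelium libraries were above both cluster libraries, at 15.9 ± 5.76 against 4.56 ± 3.25 RPKM (n = 2). The log2 fold change was 1.94 (SE 0.75, adjusted p = 0.195, edgeR) and did not pass the threshold in this fit, whereas it did in DESeq2 on the 8 libraries (adjusted p = 0.0670). It ran from 1.34 without WT clusters replicate 2 to 2.90 without WT clusters replicate 1. In Sl/Sl embryos Sl/Sl clusters replicate 2 lay among the endothelium values, and the log2 fold change was 0.68 (SE 0.73, adjusted p = 0.728, edgeR), from 0.025 without Sl/Sl clusters replicate 1 to 1.93 without Sl/Sl clusters replicate 2. Between genotypes the log2 differences were 0.81 (SE 0.73, adjusted p = 1, edgeR) in clusters, with overlapping libraries, and -0.45 (SE 0.72) in endothelium.

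Spns2, the exporter through which endothelial cells supply S1P, lies on chromosome 11 from 72265140 to 72303422. It had 1961 and 707 counts in WT clusters, 1276 and 738 in Sl/Sl clusters, 744 and 485 in WT endothelium and 614 and 488 in Sl/Sl endothelium. The endothelium libraries lay close together, at 15.3 ± 2.44 RPKM in WT and 15.6 ± 0.632 RPKM in Sl/Sl, while clusters varied, at 35.1 ± 26.2 and 23.7 ± 10.7 RPKM (n = 2). The log2 fold change of endothelium over clusters was -1.05 (SE 0.55, adjusted p = 0.338, edgeR) in WT and -0.48 (SE 0.55, adjusted p = 0.749, edgeR) in Sl/Sl, and the libraries overlapped in both. The WT value was -0.025 without WT clusters replicate 1 and -1.68 without WT clusters replicate 2. The log2 difference between genotypes was 0.05 (SE 0.55) in endothelium and -0.52 (SE 0.55, adjusted p = 1, edgeR) in clusters.

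Set in order by mean RPKM, the genes of WT endothelium ran from S1pr1 through Sgpl1, Spns2, S1pr2, S1pr3, Sphk2 and S1pr4 (2.83 ± 1.79 RPKM) to Sphk1 and S1pr5. S1pr1 stood clear of the next gene by its spread. Sgpl1 and Spns2 did not differ beyond theirs, nor did S1pr3, Sphk2 (3.00 ± 1.21 RPKM) and S1pr4. In WT clusters Spns2 and S1pr1 led and did not differ beyond their spread, followed by S1pr3, Sgpl1, Sphk2 (3.94 ± 2.20 RPKM), S1pr2 and S1pr4 (1.83 ± 0.889 RPKM), of which neighbours again lay within their spread.

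Counted over the comparisons, 0 of the 7 genes tested passed the threshold between genotypes in clusters, where 0% of the 13908 genes did. At an unadjusted p under 0.05 that comparison held 587 genes, and DESeq2 on the 8 libraries called 175. In endothelium, where the set was chosen, 0 of the 7 passed in edgeR against 0% of all genes, with 580 genes at an unadjusted p under 0.05 and 178 called by DESeq2, and nothing is read from these counts. For the interaction of genotype and cell type the figures were 0 of 7 in edgeR against 0%, with 736 genes at an unadjusted p under 0.05 and 175 called by DESeq2. Between WT endothelium and WT clusters, 1 of 7 passed (S1pr1), against 8.24% of all genes. Between Sl/Sl endothelium and Sl/Sl clusters S1pr1 was past the threshold, where 2.83% of all genes were. S1pr3 was past it too, but it was chosen on the Sl/Sl endothelium libraries and is not set beside that share. By CPM without overlap between the groups, 2 of 7 differed between genotypes in endothelium (28.5% of all genes), 2 of 7 in clusters (32.7%), 3 of 7 between the cell types in WT (50.6%) and 3 of 7 in Sl/Sl (46.4%). These shares of the set were near those of all genes in clusters and between the cell types in WT. The counts that use Sl/Sl endothelium include S1pr3, and nothing is read from them. For 1 gene taken alone, the smallest p that exact permutation of 4 libraries can give is 0.333.

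**Figure D4:**
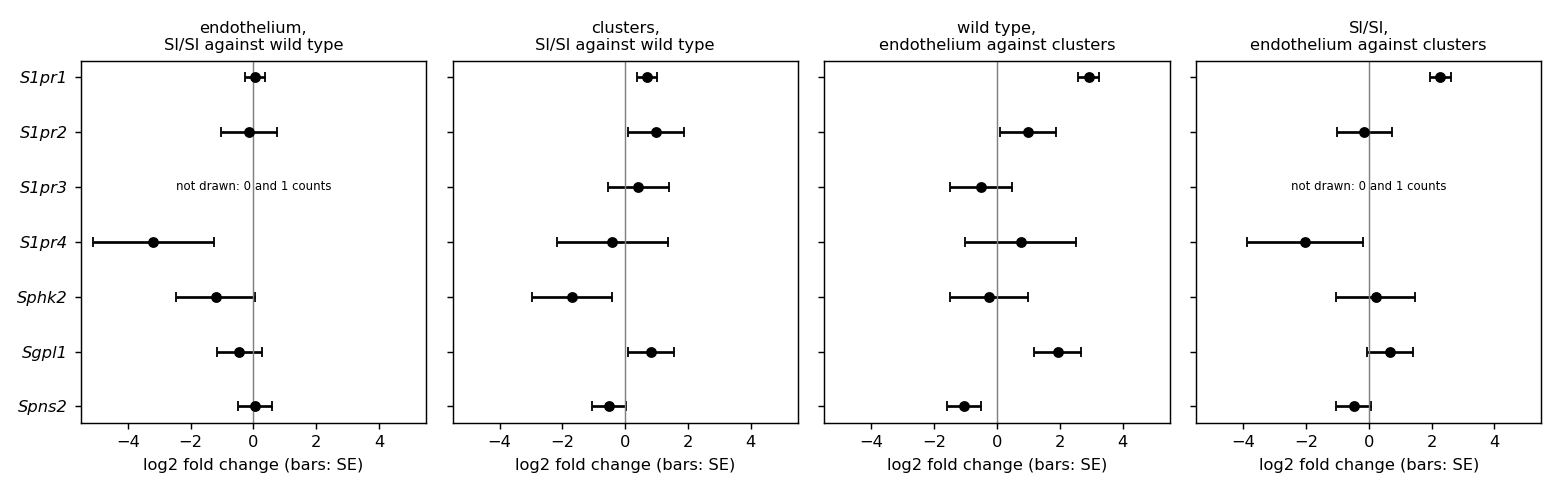
Fitted log2 fold changes (points) with their SE (bars) of the 7 genes tested, in 4 panels for the genotype comparison in endothelium and in clusters and for the cell type comparison in WT and in Sl/Sl, with n = 2 libraries in each group. S1pr1 lies at 2.92 and 2.27 in the cell type panels, and S1pr3 is left out of the panels that use Sl/Sl endothelium, where it had 0 and 1 counts.

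The other genes of the pathway were followed in 4 lists. Of 38 genes of sphingolipid metabolism, 33 were tested, and 5 were higher in WT endothelium than in WT clusters and 0 lower (8.24% of all genes differed). The median of its log2 fold changes was 0.49, and that of all genes tested was -0.0032. Ppap2a (also called Plpp1) and Ppap2b (also called Plpp3), lipid phosphatases of the cell surface that can act on S1P and lysophosphatidic acid, were higher by log2 fold changes of 4.19 (SE 0.52, adjusted p = 0.00322, edgeR) and 2.86 (SE 0.66, adjusted p = 0.0430, edgeR). Ppap2a had 61 and 183 counts in WT clusters and 2718 and 1394 in WT endothelium. Degs1, the desaturase that forms ceramide, rose by 2.05 (SE 0.35, adjusted p = 0.0147, edgeR). The ceramidases Acer2 and Asah1, which release sphingosine, were higher by 3.33 (SE 0.84, adjusted p = 0.0608, edgeR) and 1.08 (SE 0.29, adjusted p = 0.0711, edgeR). In Sl/Sl 1 of the 33 passed (2.83% of all genes), Ppap2a at 1.93 (SE 0.47, adjusted p = 0.0941, edgeR), and the list's median was -0.13 against -0.066 over all genes. Between genotypes 0 of 33 passed in either cell type in edgeR, with medians of 0.37 in clusters (0.030 over all genes) and -0.14 in endothelium (-0.0014 over all genes). Ppap2a had 647 and 924 counts in Sl/Sl clusters, above both WT values, with a log2 difference of 2.59 (SE 0.49, adjusted p = 0.375, edgeR). With 1 library left out this difference ran from 2.05 to 3.47, the highest without WT clusters replicate 2. Sgpp1, an S1P phosphatase, had 430 and 87 counts in WT clusters, 65 and 205 in Sl/Sl clusters, 163 and 67 in WT endothelium and 465 and 0 in Sl/Sl endothelium. Sgpp2 had at most 13 counts in any library.

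Of 5 carriers and transporters, 2 were higher and 1 lower in WT endothelium than in WT clusters, where 8.24% of all genes differed, with a median of -1.59 against -0.0032 over all genes. Abca1, a lipid exporter, was higher by 2.73 (SE 0.51, adjusted p = 0.0198, edgeR) in WT and by 2.50 (SE 0.50, adjusted p = 0.0477, edgeR) in Sl/Sl, where it was the 1 gene of 5 past the threshold (2.83% of all genes) and the median was 0.83 (-0.066 over all genes). Abcg2, an exporter of drugs and lipids, was higher by 1.59 (SE 0.27, adjusted p = 0.0135, edgeR), and Abcc1, which can export S1P from mast cells, was lower by 1.59 (log2 fold change -1.59, SE 0.44, adjusted p = 0.0796, edgeR). Mfsd2b, the S1P exporter of red cells and platelets, had 114 and 124 counts in WT clusters and 320 and 260 in Sl/Sl clusters, against 11 and 12 in WT and 12 and 4 in Sl/Sl endothelium. Its log2 fold changes of -3.21 (SE 1.2, adjusted p = 0.183, edgeR) in WT and -4.83 (SE 1.30, adjusted p = 0.128, edgeR) in Sl/Sl did not pass the threshold, though no library overlapped. Apom, the plasma carrier of S1P, had 78 and 22 counts in WT clusters and at most 2 in the other libraries. Between genotypes the median of this list was 0.93 in clusters (0.030 over all genes) and 0.24 in endothelium (-0.0014 over all genes), and 0 of 5 passed in edgeR.

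Of 21 genes of receptor coupling and regulation, 1 was higher and 1 lower in WT endothelium (8.24% of all genes; median 0.21 against -0.0032 over all genes). In Sl/Sl endothelium 2 were higher and 1 lower (2.83% of all genes; median 0.44 against -0.066 over all genes). The WT count is near the share of all genes. Cd69, a lymphocyte protein that binds S1pr1 and takes it from the cell surface, had 1480 and 7724 counts in WT clusters and 726 and 1463 in Sl/Sl clusters, against 11 and 7 in WT and 3 and 3 in Sl/Sl endothelium. It was lower in endothelium by log2 fold changes of -8.82 (SE 0.88, adjusted p = 0.00155, edgeR) in WT and -8.00 (SE 0.90, adjusted p = 0.00393, edgeR) in Sl/Sl, the opposite of S1pr1. Arhgef12, a guanine nucleotide exchange factor that acts after G12/13, was higher by 2.17 (SE 0.47, adjusted p = 0.0348, edgeR) in WT and 1.94 (SE 0.47, adjusted p = 0.0924, edgeR) in Sl/Sl. Klf2, a factor that drives S1pr1 in T cells, was higher in Sl/Sl endothelium by 2.53 (SE 0.61, adjusted p = 0.0928, edgeR), and in WT the value was 1.56 (SE 0.59, adjusted p = 0.189, edgeR). The WT value of Klf2 was 2.76 and past the threshold without WT clusters replicate 1 (adjusted p = 0.0224, edgeR) and 0.88 without WT clusters replicate 2. Gnai2, the Gi subunit used by S1pr1, had 2241 to 4073 counts across the 8 libraries and Gna13 480 to 963, and neither passed a comparison. Gna12 had 138 counts in WT endothelium replicate 2 and at most 13 in every other library. Between genotypes 0 of 21 passed in edgeR, with medians of -0.25 in clusters and 0.092 in endothelium (0.030 and -0.0014 over all genes).

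Of 7 genes for the receptors and the enzyme of the related lipid lysophosphatidic acid, 6 were tested. Lpar6 and Lpar4, both receptors, were higher in WT endothelium by 2.27 (SE 0.36, adjusted p = 0.0102, edgeR) and 3.33 (SE 0.98, adjusted p = 0.0956, edgeR), and Lpar6 was higher in Sl/Sl endothelium by 1.58 (SE 0.35, adjusted p = 0.0696, edgeR). These were 2 of 6 in WT (8.24% of all genes) and 1 of 6 in Sl/Sl (2.83%), with medians of 1.66 and 2.14 against -0.0032 and -0.066 over all genes. Enpp2 (autotaxin), which makes lysophosphatidic acid, had 242 and 205 counts in WT endothelium and 274 and 34 in Sl/Sl endothelium against 0 to 16 in clusters, and its log2 fold changes of 4.84 (SE 1.90, adjusted p = 0.202, edgeR) and 4.90 (SE 1.91, adjusted p = 0.289, edgeR) did not pass. In WT the value was 10.9 and past the threshold without WT clusters replicate 1 (adjusted p = 0.0644, edgeR), where the 1 WT cluster library left has 0 counts and the fitted value depends on the prior count, and 3.81 without WT clusters replicate 2. In Sl/Sl it ran from 3.08 without Sl/Sl endothelium replicate 1 to 5.64 without Sl/Sl endothelium replicate 2. Between genotypes 0 of 6 passed in edgeR, with medians of 0.51 in clusters and 0.19 in endothelium (0.030 and -0.0014 over all genes).

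Of the 12 pathway genes called in WT, 6 kept their call when any 1 library was left out, namely Degs1, Ppap2a, Lpar6, Abca1, Abcg2 and Cd69. Acer2 and Ppap2b lost theirs without WT clusters replicate 2, at log2 fold changes of 2.74 and 2.31, or without WT endothelium replicate 1, at 3.07 and 2.05. Lpar4 lost its call without WT clusters replicate 2, at 2.42, and without either WT endothelium library, and it reached 6.01 without WT clusters replicate 1. Arhgef12 lost its call without WT clusters replicate 1, at 1.82, or WT endothelium replicate 1, at 2.06. Asah1 lost its call without any of the 4 WT libraries, within 1.00 to 1.13, and Abcc1 without any of those 4 or Sl/Sl clusters replicate 1, within -1.72 to -1.49. Of the called values that passed throughout, Ppap2a reached 5.05 without WT clusters replicate 2, Abca1 ran from 2.12 without WT clusters replicate 2 to 3.70 without WT clusters replicate 1, and Cd69 from -9.54 without WT clusters replicate 1 to -7.34 without WT clusters replicate 2. In Sl/Sl 1 of 6 calls, Cd69, was kept throughout. The calls of Klf2 and Abca1 were lost without Sl/Sl clusters replicate 2 or Sl/Sl endothelium replicate 1, within 2.06 to 3.03 and 2.35 to 2.66. Ppap2a lost its call without any of the 4 Sl/Sl libraries, within 1.77 to 2.07, and Lpar6 without any of these except Sl/Sl clusters replicate 1, within 1.10 to 2.30. Arhgef12 lost its Sl/Sl call without any library other than the WT cluster libraries, within 1.81 to 2.08. Degs1, Acer2 and Lpar4, not called in Sl/Sl, passed with some library left out. For Degs1 and Acer2 this was Sl/Sl clusters replicate 1, at 2.01 and 4.34. Degs1 also passed without either WT cluster library or WT endothelium replicate 1, within 1.33 to 1.36, and Lpar4 without either WT cluster library, at 2.70 and 2.67. The sums of the endothelial markers are those given above, higher in each endothelium library than in any cluster library. The part of these markers in the pathway values was not tested.

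**Figure D5:**
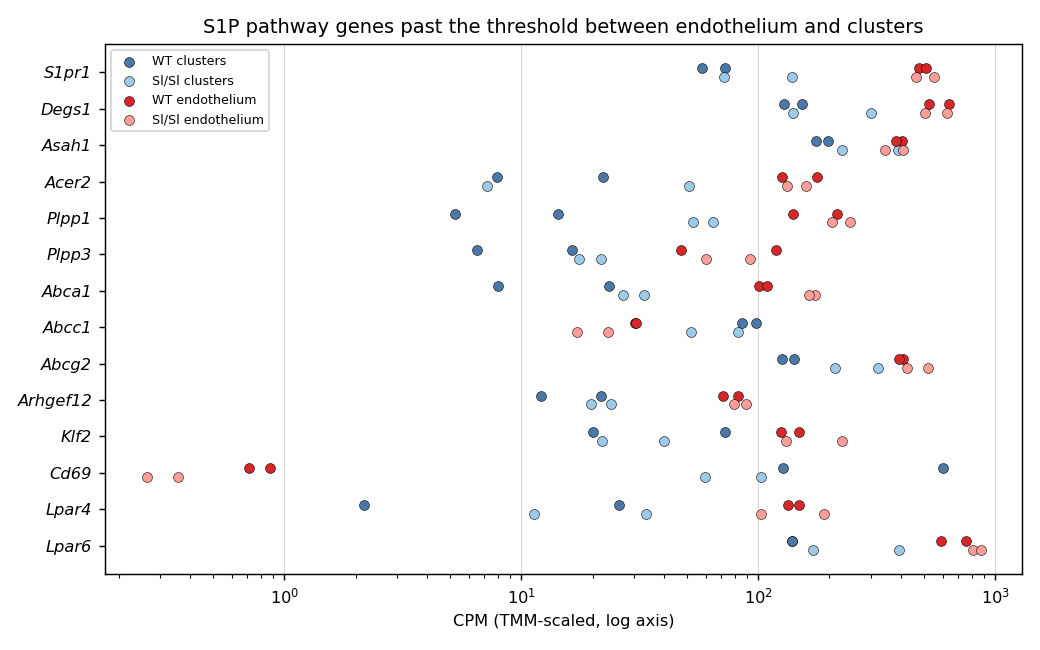
CPM (TMM-scaled, log axis) of S1pr1 and of the pathway genes past the threshold between endothelium and clusters in either genotype, with a point for each of the 8 libraries coloured by group; Plpp1 and Plpp3 are the current symbols of Ppap2a and Ppap2b. Cd69 and Abcc1 lie higher in the cluster libraries, and the other genes lie mostly higher in the endothelium libraries.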

How the data were processed

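RNA was measured in 8 libraries of 100 sorted cells (SMARTSEQ2). The authors aligned reads to mm9 with STAR 2.4.2a and counted them on genes with featureCounts (Subread 1.4.5). Raw counts per gene were deposited, and the study's own tests used DESeq2 1.12.4. The annotation, the strand setting and the treatment of reads matching several places are not given in the sources used here. A spreadsheet had turned 27 gene names into dates, and these genes were tested and are not named. Groups came from the sample titles.

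Counts were fitted with edgeR 4.0.16 (limma 3.58.1, R 4.3.3) in all 8 libraries, by the quasi-likelihood test with TMM factors and the filterByExpr filter, adjusted by Benjamini-Hochberg over 13908 genes at a threshold of 0.1. SE is the log2 fold change divided by the square root of F. RPKM used plain totals. Likeness used log2 CPM with a prior count of 2. Named were the 9 genes, pathway genes past the threshold (at most 5 per list and comparison), 14 pathway genes whatever their values, the 3 genes most like S1pr1, S1pr3 and S1pr4, and neighbours within 1 Mb of S1pr3. The members, lists and motifs were chosen with earlier results of these data known. The test was first tested on simulated data. Alternatives were DESeq2 1.42.0, RLE factors, other filters and thresholds, fits on 4 libraries, a replicate block and leaving out each library.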

Additional observations from a re-analysis of the deposited data

How the results depend on the processing

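The number of genes past the threshold moved most with the filter and the tool. Between genotypes in endothelium edgeR called 0 genes, and the count was 65 with no filter beyond 1 count, 2 in edgeR on the 4 libraries of the cell type, 178 in DESeq2 on the 8 libraries, 55 in DESeq2 on 4 libraries, and 0 to 1 with each library left out. With no filter and in both DESeq2 fits 1 member passed, S1pr3. The set was chosen on this gene in these libraries, so no test of it is read. In clusters the count of 0 became 253 with no filter, 9 with at least 10 counts in every library, 8 with the replicate block, 175 and 107 in DESeq2 on 8 and 4 libraries, and 6 to 76 with a library left out. Between cell types, the 1146 genes in WT became 657 at an adjusted p of 0.05, 1990 with no filter, 2613 in DESeq2 and 592 to 1329 with a library left out, and 2 members passed with no filter and in DESeq2. The 393 genes in Sl/Sl became 222, 1266, 1631 and 182 to 633 in the same order, and with at least 10 counts in every library 1 member passed. For the interaction the 0 genes became 179 with no filter, 175 in DESeq2 and 0 to 27 with a library left out, with 1 and 1 member past the threshold in the first 2, in both S1pr3, on which the set was chosen and for which no test is read. With the replicate block, Sphk2 turned to -0.34 between cell types in Sl/Sl and -0.14 in the interaction. The replicate numbers mark no shared pool in the sources, the correlations of replicate deviations between groups were -0.11 to 0.157, and the block changed no other member's direction or call. With a library left out, the signs of these log2 values turned: in clusters S1pr3 from -0.35 to 1.28, S1pr4 from -1.51 to 0.23, Sgpl1 from -0.43 to 1.77 and Spns2 from -1.12 to 0.51; between cell types in WT S1pr4 from -0.14 to 1.37 and Sphk2 from -0.75 to 0.41, and in Sl/Sl S1pr2 from -0.89 to 0.58, Sphk2 from -2.03 to 1.03, Spns2 from -0.91 to 0.12 and the pathway gene Asah1 from -0.045 to 0.74; in the interaction Sphk2 from -1.74 to 1.28 and Spns2 from -0.46 to 1.17. The cause was not tested. S1pr1 kept its direction and call between cell types under every alternative run.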
